A study of Mus musculus with 6 samples.

Results

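The spliceosome and heterogeneous nuclear ribonucleoprotein (hnRNP) genes were taken as all genes whose symbol starts with Snrp, Sf3a or Sf3b, Prpf, Srsf or Hnrnp and that had a probe set annotated with that symbol alone. A gene with several such probe sets was represented by the probe set with the highest mean over the 6 arrays. This gave 58 of 19938 genes: 10 Snrp, 9 Sf3, 12 Prpf, 10 Srsf and 17 Hnrnp genes. The rule used gene names and mean signal, not the difference between the tissues. It was set with earlier results of these data known. The cells were B lineage cells carrying a green fluorescent reporter of Rag2 (RAG2-GFP/129Sve mice, post-natal day 17 to 25), sorted by that fluorescence from the lamina propria of the small intestine or from bone marrow of mice kept under SPF conditions. Each tissue gave 3 independent pools, 8 to 12 mice went into an experiment, and each pool filled 1 array. The labels do not state how the reporter is driven or which further markers were gated. The question set by the labels is how expression profiles compare between the 2 tissues.

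Most mammalian genes are interrupted by introns, which the spliceosome removes from the transcript. It is built on each intron from small nuclear ribonucleoproteins (snRNPs): U1 marks the 5 prime splice site, U2 with the SF3a and SF3b complexes holds the branch site, and the U4/U6.U5 tri-snRNP brings the catalytic core. Each of the U1, U2, U4 and U5 particles is held by a ring of Sm proteins, most of them encoded by Snrp genes, and many Prpf genes encode tri-snRNP proteins or factors that act during assembly and catalysis. SR proteins (Srsf) bind exons and generally favour their inclusion, while hnRNP proteins coat nascent transcripts and often repress exons or alter their choice. In B cells alternative RNA processing decides between membrane and secreted immunoglobulin heavy chains, and Hnrnpl and Hnrnpll are known regulators of alternative exons of Ptprc, which encodes CD45.

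Values are RMA signals on the log2 scale, so that 1 unit is a 2-fold step within a probe set, and a difference is lamina propria minus bone marrow. Lamina propria pools 1 and 2 stood apart from the other 4 arrays over all genes. Their interquartile ranges over all probe sets were 2.00 and 1.94, against 2.41 to 2.47 elsewhere, and 981 and 913 genes had a signal above 8, against 1652 to 1903. Of the 58 genes, 27 lay above 8 in each of these pools and 37 to 41 in the other arrays. The values of each pool are therefore given beside the main results, and the counts also for pool 3 alone and without it. Of 10 markers that define the B lineage, 9 were measured and their summed level was 13.26 to 13.34 in the lamina propria and 13.33 to 13.79 in the marrow. Of these 9 markers 8 had a negative difference and 2 did not overlap, Rag2 at -2.35, the gene whose reporter was sorted, and Rag1 at -1.05. Pax5 and Cd79b differed by -0.62 and -0.52. The labels' amounts of 4.5 to 47 ng of amplified RNA are not assigned to pools, so the part of the RNA amount was not tested.

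No spliceosome or hnRNP gene differed between the tissues in limma with Benjamini-Hochberg adjustment over all genes at 0.05 (0 of 58), and the background was 0% of all genes. The smallest adjusted p among the 58 was 0.344 (limma), in Snrpd3. At an unadjusted limma p under 0.05, 4 genes were lower in the lamina propria, 6.9% against 8.15% of all genes: Snrpd3, Prpf3, Prpf18 and Sf3b5. On the other side was Snrpb, 1.72% against 5.53% of all genes. In bulk samples fewer cells of a type and less RNA per cell cannot be told apart.

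Most differences were negative all the same. Of the 58 differences 42 were negative, 72.4% against 32.4% of all genes, and 16 were positive, 27.6% against 67.6%. The share over all genes mixes signal levels. A marrow mean under 6 was seen in 12846 genes, with a median difference of 0.32, but in only 4 of the 58. At marrow means of 7 to 8, 8 to 9 and 9 to 10 all genes had median differences of -0.69, -0.97 and -0.77. The members there had -0.56, -0.52 and -0.82. Over the 58 genes the median difference was -0.31, against 0.22 over all genes. Once the arrays were scaled to equal interquartile range it was 0.16, against 0.13 over all genes. Then 28 differences were negative, 48.3% against 39.2% of all genes, and 30 were positive. That scaling stretches lamina propria pools 1 and 2 by a single factor per array, bright genes included. As deposited, all genes at 11 and over in the marrow had medians of only -0.03 and -0.16 in these pools. All 3 lamina propria values lay below all 3 marrow values in 3 genes (Snrpd3, Prpf3 and Hnrnpa2b1), 5.17% against 7.27% of all genes. They lay above them in 2 genes (Snrpb and Hnrnpa0), 3.45% against 14.8%. Both shares of separated genes were under the background.

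The 3 lamina propria pools did not behave alike. Relative to the marrow mean, the median over the 58 genes was -0.50 in pool 1, -0.66 in pool 2 and 0.16 in pool 3, against 0.31, 0.31 and -0.01 over all genes. Pool 3 lay above all marrow pools in 23 of the 58 genes, 39.7% against 24.8% of all genes, and below them in 5, or 8.62% against 26.7%. Without pool 3, 18 of the 58 genes passed limma as lower, 31% against 12.1% of all genes, and 2 as higher (Prpf40b and Srsf12), 3.45% against 24.1%. In that comparison of pools 1 and 2 with the marrow, 26 genes lay wholly below it, 44.8% against 18.7%, and 5 wholly above, 8.62% against 51.2%.

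**Figure D1:**
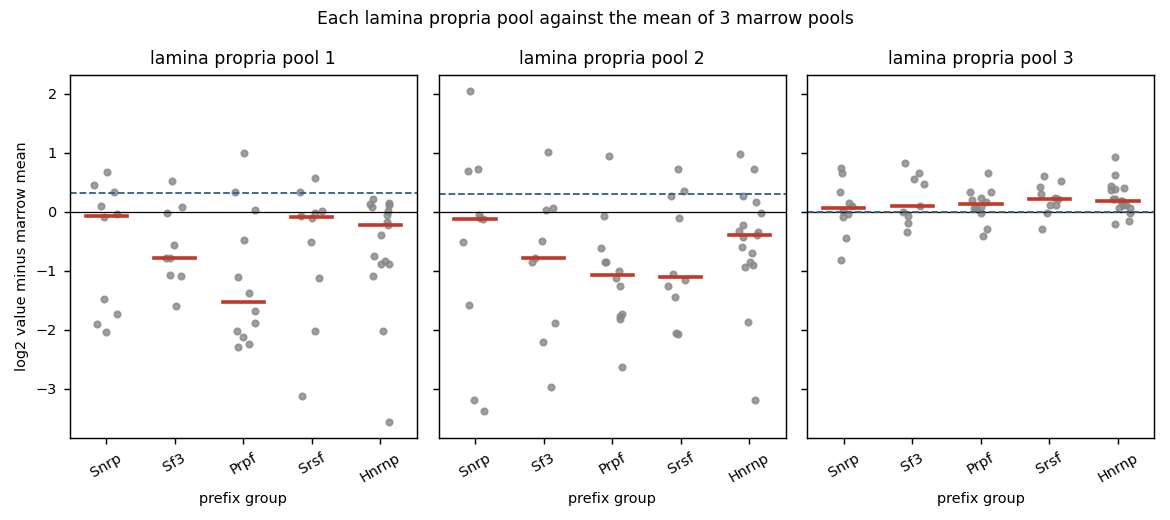
Differences of each lamina propria pool from the mean of the 3 marrow pools on the log2 scale, 1 point per gene, by prefix group; the red bar is the group median and the dashed line the median of all 19938 genes. The Prpf median was -1.53 in pool 1, -1.07 in pool 2 and 0.13 in pool 3, so the sign seen in pools 1 and 2 was turned in pool 3. All genes at marrow signals of 7 to 8, where the Prpf median marrow signal lay, had medians of -1.02, -1.07 and -0.05 in these pools.

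The spread between the pools was wide. The SD over the 3 lamina propria pools had a median of 0.63 over the 58 genes, against 0.39 over all genes, and that over the marrow pools was 0.28 against 0.17. Pools 1 and 2 differed from each other by a median of 0.61 in these genes, against 0.28 over all genes, whereas marrow pools 1 and 2 differed by 0.20 against 0.17. Marrow pool 3 lay above both other marrow pools in 37 of the 58 genes, 15 of them Hnrnp genes, and in 7050 of all 19938 genes.

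Because array signals of different probe sets are not levels that can be ranked, the 58 genes were set beside other genes of the same marrow signal only to describe the pools. Between 8 and 9 in the marrow, where 15 of the 58 genes lay, the median difference of pool 1 was -1.10 for these 15 genes and -1.38 for all 1030 genes. Pool 2 gave -1.58 and -1.55 there, and pool 3 gave 0.34 and -0.04. At 11 and over, the 10 genes had medians of -0.14, -0.22 and 0.12 in pools 1, 2 and 3, against -0.03, -0.16 and -0.01 for all 79 genes. In pools 1 and 2 genes of middle marrow signal thus lay below the marrow whether or not they belonged to the 58. Under 6 in the marrow, the 12846 genes had medians of 0.46 and 0.47 in pools 1 and 2, and only 4 of the 58 genes lay there, Hnrnpa0, Hnrnpll, Prpf40b and Srsf12.

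**Figure D2:**
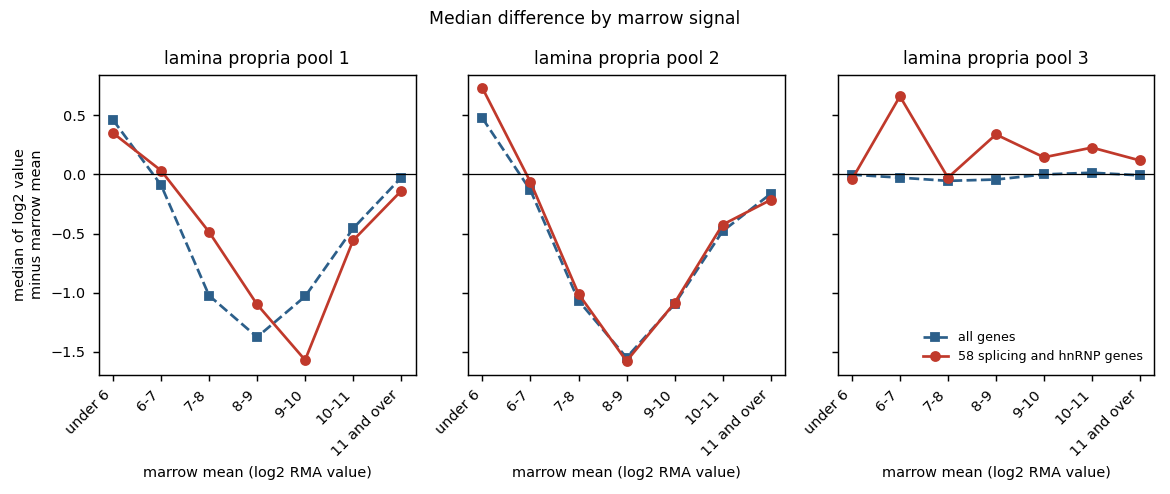
Median difference of each lamina propria pool from the marrow mean (log2 scale) for genes grouped by their marrow mean, for all genes (dashed) and for the 58 genes (solid). In pools 1 and 2 both lines dip at marrow signals of 7 to 10, while in pool 3 the line of all genes stays between -0.05 and 0.01.

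The promoters of the separated genes are shown before their values because in these 5 genes alone of the 58 the pools of the tissues did not overlap. Of the 58 genes 51 had an entry in the RefSeq table of GRCm38.p6, which covers 250 bases before to 50 bases after the annotated start, and Snrpb was not among them. The first entry of a gene was used. Capitals mark matches, on either strand, to the ETS core CGGAAG, the GC box GGGCGG, the CCAAT box with these letters, the TATA box TATAAA, the YY1 motif ATGGCGGC, the NRF1 motif GCGCATGC or the E-box CACGTG, and in Snrpd3 a GC box and a CCAAT match overlap. The first 3 sequences belong to the separated genes that were lower in the lamina propria, and the last to Hnrnpa0.
Snrpd3 (chr10:75517792-75518091, plus strand): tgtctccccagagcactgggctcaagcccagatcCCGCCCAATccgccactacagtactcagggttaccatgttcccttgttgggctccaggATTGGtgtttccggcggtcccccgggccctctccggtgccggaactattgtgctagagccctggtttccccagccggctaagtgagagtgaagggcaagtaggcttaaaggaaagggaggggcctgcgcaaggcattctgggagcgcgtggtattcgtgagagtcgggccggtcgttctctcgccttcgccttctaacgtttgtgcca
Prpf3 (chr3:95855836-95856135, minus strand): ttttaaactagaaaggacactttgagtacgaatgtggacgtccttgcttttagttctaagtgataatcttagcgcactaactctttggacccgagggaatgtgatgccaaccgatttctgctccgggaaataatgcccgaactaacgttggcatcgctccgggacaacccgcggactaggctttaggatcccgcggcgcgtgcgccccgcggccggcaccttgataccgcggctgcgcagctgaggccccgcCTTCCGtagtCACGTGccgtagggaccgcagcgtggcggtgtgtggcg
Hnrnpa2b1 (chr6:51469845-51470144, minus strand): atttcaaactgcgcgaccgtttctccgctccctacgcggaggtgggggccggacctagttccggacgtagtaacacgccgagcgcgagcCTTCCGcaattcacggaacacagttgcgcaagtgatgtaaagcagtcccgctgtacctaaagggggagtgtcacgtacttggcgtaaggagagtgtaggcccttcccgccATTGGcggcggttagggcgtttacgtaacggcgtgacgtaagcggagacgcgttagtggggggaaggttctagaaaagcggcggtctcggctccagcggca
Hnrnpa0 (chr13:58128507-58128806, minus strand): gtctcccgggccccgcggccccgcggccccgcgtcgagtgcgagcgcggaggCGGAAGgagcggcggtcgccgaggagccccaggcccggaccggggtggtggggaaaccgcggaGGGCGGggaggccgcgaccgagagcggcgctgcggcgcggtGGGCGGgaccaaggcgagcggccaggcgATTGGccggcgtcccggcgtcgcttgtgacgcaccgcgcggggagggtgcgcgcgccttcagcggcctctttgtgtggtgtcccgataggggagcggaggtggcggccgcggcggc

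The ETS core occurred in 29 of the 51 promoters, 56.9% against 22.6% of 15614 promoters of the same length. By group it was found in 7 of 8 Snrp, 7 of 7 Sf3, 6 of 11 Prpf, 4 of 10 Srsf and 5 of 15 Hnrnp promoters. The GC box occurred in 66.7% against 49.9%, CCAAT in 47.1% against 38.2% and TATAAA in 11.8% against 12.1%. The YY1 motif was in 7.84% against 3.41%, the E-box in 13.7% against 8.38%, and the NRF1 motif in 0 of 51 against 3.9%. The promoters of the 51 genes had a median GC content of 60% and 25 CpG dinucleotides, against 57.7% and 15. Among the 4 printed promoters the ETS core is found in Prpf3, Hnrnpa2b1 and Hnrnpa0 but not in Snrpd3. Hnrnpa0 is the only higher gene among these 4, and whether the motif goes with the sign of the difference was not tested. These matches describe letters only.

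The Sm ring proteins, which close around the small nuclear RNAs, were split in sign. Of 6 measured ring genes 4 had negative differences (Snrpd3, Snrpd2, Snrpe and Snrpd1) and 2 positive ones (Snrpg and Snrpb). Snrpd3 (probe set 10364051) read 7.78, 6.44 and 9.01 in lamina propria pools 1, 2 and 3, and 10.09, 10.24 and 9.14 in the marrow pools. All lamina propria values were below all marrow values, although lamina propria pool 3 and marrow pool 3 were close. The means were 7.74 ± 1.28 and 9.82 ± 0.59 (SD, n = 3 each), so that the difference was -2.08 (95% interval -3.55 to -0.61) or 4.22-fold, with an adjusted p of 0.344 (limma).

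Snrpb, which encodes the SmB protein of the same ring, lay on the other side. It read 6.73, 7.0 and 7.02 in the lamina propria and 6.27, 6.55 and 5.97 in the marrow, without overlap. The difference was 0.65 (95% interval 0.11 to 1.18) or 1.57-fold, with an adjusted p of 0.356 (limma). Snrpb was above the marrow mean in each lamina propria pool, by 0.46, 0.73 and 0.75. Opposite signs were thus seen for Sm genes whose protein products form a single ring. The smaller differences were 0.46 in Snrpg, which was 1.33 under the interquartile scaling, -0.13 in Snrpe and -0.03 in Snrpd1, which turned to 0.46 under that scaling and 0.10 after renewed quantile normalization. Snrpg had a second probe set with a difference of 1.13, in the same direction.

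Snrpd2 varied most within the marrow. Its representative read 6.99, 7.31 and 8.84 in the lamina propria and 10.01, 10.04 and 6.61 in the marrow, so that the marrow pool 3 value was below every lamina propria value. All 5 probe sets with this symbol read 6.47 to 6.75 in marrow pool 3 and 8.61 to 10.11 in marrow pools 1 and 2. The difference of -1.17 became -2.31 without marrow pool 3.

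The proteins specific to U1 and U2 also showed no common direction. Snrpa and Snrpc, which encode proteins of the U1 particle, differed by 0.12 and -0.21. Snrpb2, which encodes a U2 protein, read 7.09, 5.63 and 9.48 in the lamina propria and 8.26, 9.03 and 9.17 in the marrow. Its difference of -1.42 (95% interval -3.46 to 0.62) hid values far below the marrow in pools 1 and 2 and a value above it in pool 3, where the difference was 0.66. Snrpa1, whose U2 protein pairs with that of Snrpb2, read 6.56 in pool 1, 10.09 in pool 2 and 8.38 in pool 3. Its marrow values of 7.82, 8.37 and 7.95 lay between those of pools 1 and 2. The Snrp median was -0.08, and it turned to 0.46 under the interquartile scaling and to 0.10 after quantile normalization.

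The SF3a and SF3b complexes belong to the U2 particle and clamp the branch site. Of 9 genes 7 had negative differences, with a median of -0.30, but in pool 3 alone it was 0.09 with 4 negative and 5 positive. Sf3a3 read 6.99, 5.11 and 8.08 in the lamina propria and 7.89, 7.78 and 8.59 in the marrow, a difference of -1.36 (95% interval -2.97 to 0.26). The groups overlapped through pool 3, which lay at the marrow mean. Sf3b3, a large scaffold subunit of SF3b, read 7.07, 6.77 and 9.48 against 8.62, 8.52 and 8.85. Pools 1 and 2 were below all marrow pools and pool 3 above them, which left a difference of -0.89 (95% interval -2.43 to 0.66).

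Sf3b5 had a smaller and more even difference. It read 5.62, 5.90 and 6.35 in the lamina propria and 6.23, 6.69 and 7.15 in the marrow, and only pool 3 reached into the marrow range. The difference was -0.73 (95% interval -1.45 to -0.01), below the marrow mean in each pool, with an adjusted p of 0.356 (limma). Sf3b1, the subunit that contacts the branch site region, read 10.27, 10.33 and 11.38 against 10.65, 10.83 and 11.01, so that pool 3 was above the marrow and the other pools below. Its difference of -0.17 turned to 0.50 under the interquartile scaling. Sf3a1 and Sf3b4 had the only positive differences, 0.11 and 0.37, or 0.32 and 0.60 under that scaling, and a second Sf3b4 probe set gave -0.03.

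The Prpf genes had the lowest median of the 5 groups, -0.75, with 10 of 12 differences negative as deposited and under both other scalings, but 3 of 12 in pool 3 alone, where the median was 0.13. Of all genes 32.4% were negative as deposited, a share that mixes signal levels. The Prpf median marrow signal was 7.79, and all genes at 7 to 8 in the marrow had a median difference of -0.69, near that of the Prpf genes. Without pool 3 the median was -1.23 and without pool 1 it was -0.43. The 5 genes of tri-snRNP proteins (Prpf3, Prpf4, Prpf6, Prpf8 and Prpf31) all had negative differences, from -1.65 to -0.56, under all 3 scalings. In pool 3 this held for Prpf3 only. Prpf3, a protein of the U4/U6 particle (probe set 10500253), read 5.94, 5.34 and 7.67 in the lamina propria and 8.03, 7.80 and 8.06 in the marrow. The groups did not overlap, although pool 3 came close to the lowest marrow value. The means were 6.32 ± 1.21 and 7.97 ± 0.14 (SD, n = 3 each), so that the difference was -1.65 (95% interval -2.93 to -0.36) or 3.14-fold, with an adjusted p of 0.356 (limma).

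Prpf8, the large protein at the catalytic core, read 6.25, 6.81 and 8.89 in the lamina propria and 8.69, 8.39 and 8.57 in the marrow. Pools 1 and 2 were lower than every marrow pool and pool 3 was higher than every one, and the difference was -1.23 (95% interval -2.69 to 0.22). Prpf31 and Prpf4, which bind the U4 side of the particle, differed by -0.78 and -0.72, and Prpf6, a bridge between U5 and U4/U6, by -0.56. In pool 3 these 3 genes were 0.34, 0.09 and 0.06 above the marrow mean.

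Among the other Prpf genes, Prpf18, a factor of the later catalytic step, read 5.04, 5.51 and 6.87 in the lamina propria and 7.10, 6.65 and 8.09 in the marrow. The difference was -1.47 (95% interval -2.74 to -0.21), below the marrow mean in each pool, although pool 3 overlapped the marrow. The kinase gene Prpf4b differed by -1.03 and Prpf38b by -0.84, or -0.65 and -0.35 under the interquartile scaling, each with pool 3 above the marrow mean. Prpf19, a ubiquitin ligase of the catalytic spliceosome, read 6.68, 6.58 and 7.31 against 6.50, 6.59 and 6.85, a difference of 0.21 that lay within the spread of the pools. Prpf40b had the largest positive difference, with 6.34, 6.28 and 5.42 against 5.60, 5.32 and 5.11, a difference of 0.67 (95% interval -0.04 to 1.38). Its pool 3 value lay inside the marrow range. Its marrow mean was 5.34, and all genes under 6 in the marrow had a median difference of 0.32. Prpf40b passed limma as higher without pool 3 (adjusted p = 0.0229, limma), as did 24.1% of all genes.

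**Figure D3:**
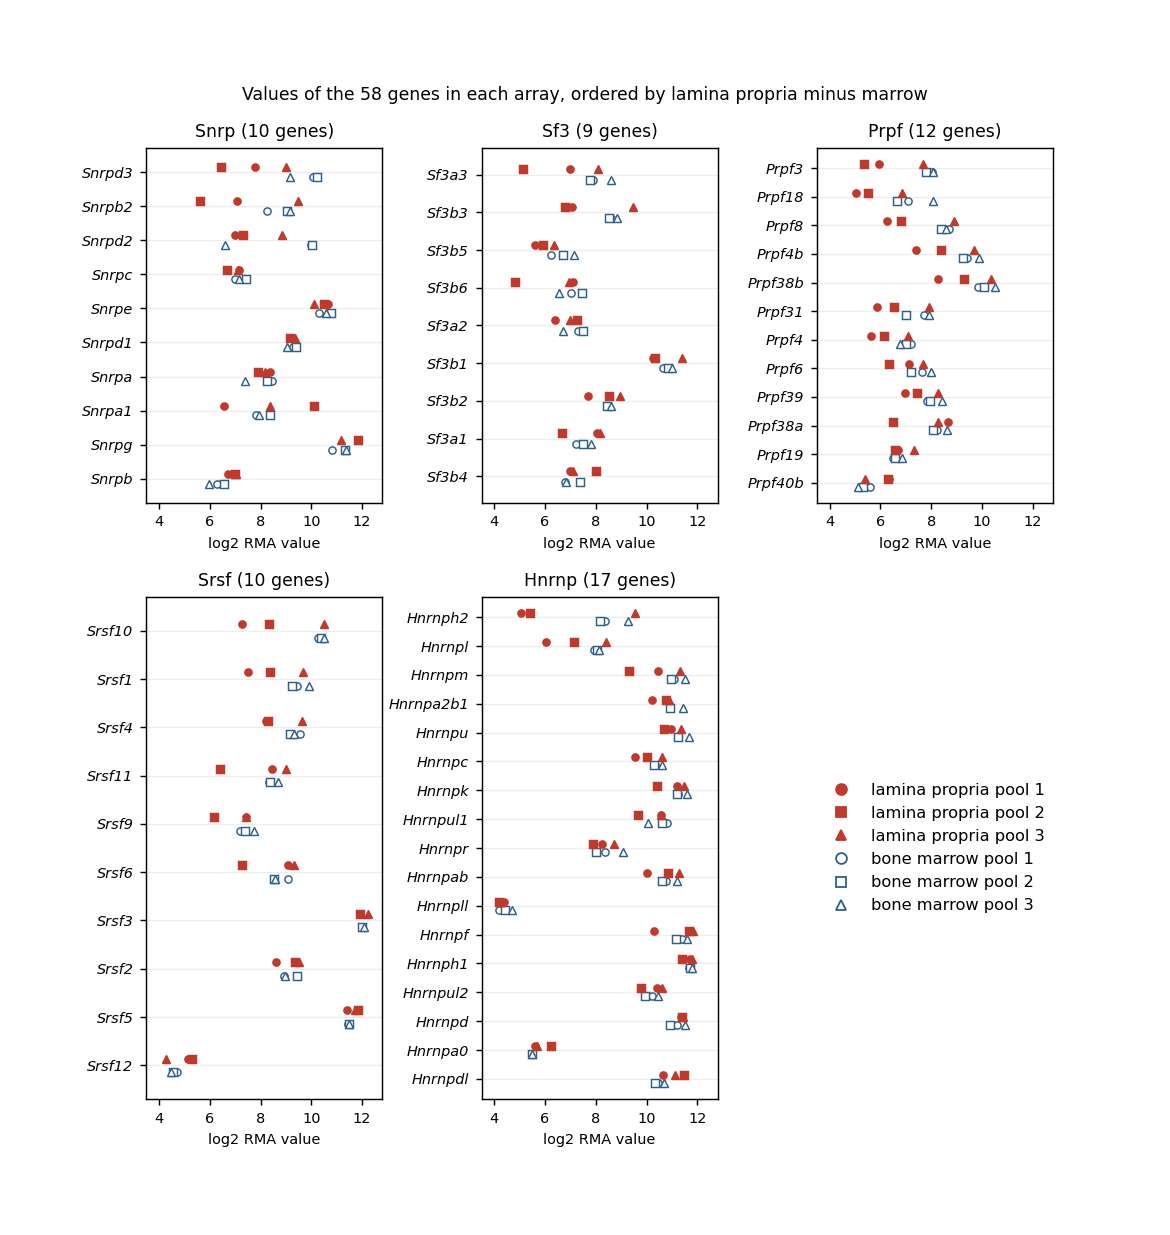
The log2 RMA value of each of the 58 genes in each array, by prefix group and ordered by the difference between the tissues; filled red symbols are lamina propria pools and open blue symbols marrow pools, with a circle, square and triangle for pools 1, 2 and 3. In Hnrnph2, Srsf10 and Prpf8 the filled triangle sits with the marrow symbols while the filled circle and square lie to the left.

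The SR protein genes had a median of -0.30, which was -0.06 after quantile normalization, -0.02 under the interquartile scaling and 0.22 in pool 3 alone. Srsf10, an SR protein whose activity depends on its phosphorylation, read 7.25, 8.32 and 10.50 in the lamina propria and 10.27, 10.37 and 10.50 in the marrow. Pool 3 matched the marrow, while pools 1 and 2 differed from its mean by -3.13 and -2.06. The difference was -1.69 (95% interval -3.39 to 0.01) with an adjusted p of 0.356 (limma). A second probe set, at 4.18, 7.01 and 7.41 against 6.83, 7.06 and 7.30, was low in pool 1 only.

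Srsf1, the founding SR protein, read 7.52, 8.39 and 9.66 against 9.44, 9.25 and 9.92, a difference of -1.01 (95% interval -2.21 to 0.18) that was -0.63 under the interquartile scaling. The pattern was the same as in Srsf10, with pool 3 inside the marrow range. Srsf4 differed by -0.62, or -0.22 under the interquartile scaling, with pools 1 and 2 below the marrow and pool 3 above it. Srsf12, a small SR protein of the same subfamily as Srsf10, read 5.15, 5.30 and 4.29 against 4.70, 4.54 and 4.48, a difference of 0.34 that was -0.29 in pool 3. Its marrow mean was 4.57, and all genes under 6 in the marrow had a median difference of 0.32.

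Srsf3, which regulates the inclusion of an exon in its own transcript, had the smallest difference of the 58 as deposited. It read 11.91, 11.91 and 12.24 in the lamina propria and 11.99, 11.98 and 12.08 in the marrow, a difference of 0.00 (95% interval -0.46 to 0.47) that was 0.91 under the interquartile scaling. The dimmest of its 3 probe sets read 3.40 in lamina propria pool 2, against 7.82 to 8.45 in the other 5 arrays, and differed by -1.75. Srsf2 and Srsf5 differed by 0.06 and 0.17, or 0.53 and 1.02 under that scaling, and the second Srsf5 probe set by 0.15 as deposited. Srsf5 read 11.42, 11.84 and 11.72 against 11.46, 11.50 and 11.50, with pool 1 below the marrow and the other pools above it.

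The Hnrnp genes had 13 of 17 differences negative and a median of -0.20, which turned to 0.39 with 13 of 17 positive under the interquartile scaling and to 0.19 in pool 3 alone. Under that scaling 12126 of all 19938 genes were positive, with a median of 0.13. The Hnrnp genes were bright, with a median marrow signal of 10.49, and this scaling stretches bright genes in pools 1 and 2 as well. Hnrnph2, which binds runs of guanine, showed the largest gap between the lamina propria pools. It read 5.04, 5.4 and 9.53 in pools 1, 2 and 3 and 8.34, 8.18 and 9.27 in the marrow. Relative to the marrow mean pools 1 and 2 stood at -3.56 and -3.20 and pool 3 at 0.93. The difference of -1.94 (95% interval -4.53 to 0.64) did not pass (adjusted p = 0.364, limma), and without pool 3 it was -3.38 (adjusted p = 0.0091, limma). The second Hnrnph2 probe set repeated this, with 5.27, 6.14 and 9.0 against 8.02, 8.01 and 9.08.

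Its relative Hnrnph1 read 11.73, 11.39 and 11.79 against 11.67, 11.71 and 11.79, a difference of -0.08 that was 0.77 under the interquartile scaling. Hnrnpf, also of this family, read 10.30, 11.66 and 11.82 against 11.40, 11.15 and 11.60, low in pool 1 only, and 1 of its 4 probe sets had a positive difference. Genes of a single family thus ranged from a large gap between pools to almost none. Hnrnpa2b1, an abundant core hnRNP protein, read 10.22, 10.75 and 10.89 in the lamina propria and 10.91, 10.94 and 11.44 in the marrow, without overlap. Its difference was -0.47 (95% interval -1.10 to 0.15), with pool 3 just under the lowest marrow value, and it turned to 0.25 under the interquartile scaling. The adjusted p was 0.363 (limma).

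Both regulators of Ptprc exons had negative differences that did not pass. Hnrnpl, which binds CA repeats, read 6.03, 7.14 and 8.41 against 7.92, 8.06 and 8.14, below the marrow in pools 1 and 2 and above it in pool 3. Its difference was -0.85 (95% interval -2.11 to 0.41). Hnrnpll read 4.38, 4.21 and 4.28 against 4.18, 4.43 and 4.70, a difference of -0.15 inside the marrow spread. That difference was -0.014 without marrow pool 3. The Hnrnpll signal was low, with a marrow mean of 4.44 against a median of 5.45 over all genes. The difference between these genes was not tested. Hnrnpm differed by -0.83, or -0.19 under the interquartile scaling, with 10.43, 9.32 and 11.31 against 11.10, 10.95 and 11.51.

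Other core hnRNP genes had small differences that depended on the scaling. Hnrnpc, which binds uridine tracts, differed by -0.36, Hnrnpk, which binds cytosine-rich RNA, by -0.33, and Hnrnpu, a large nuclear matrix protein, by -0.37. Under the interquartile scaling these became 0.25, 0.42 and 0.39. On the positive side Hnrnpa0 read 5.62, 6.23 and 5.69 in the lamina propria and 5.49, 5.50 and 5.50 in the marrow, without overlap. Its difference was 0.35 (95% interval -0.19 to 0.89), with an adjusted p of 0.392 (limma). The Hnrnpa0 marrow mean was 5.50, and all genes under 6 in the marrow had a median difference of 0.32. Hnrnpdl read 10.63, 11.47 and 11.11 against 10.44, 10.34 and 10.68, with a difference of 0.59 (95% interval -0.03 to 1.21), above the marrow mean in each pool, and of 1.33 under the interquartile scaling.

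The 13 genes not yet described had smaller differences, 11 of them negative, from -0.73 in Sf3b6 to 0.17 in Hnrnpd, whose product binds AU-rich RNA. In some of them a single lamina propria pool set the difference. Sf3b6, a small SF3b subunit near the branch site, read 7.10, 4.81 and 6.95 in the lamina propria and 7.03, 7.44 and 6.56 in the marrow. Srsf11 read 8.45, 6.39 and 9.0 against 8.35, 8.37 and 8.68, and Prpf38a read 8.65, 6.50 and 8.28 against 8.25, 8.06 and 8.62. Pool 2 was the lowest array in these 3 genes, as it was in Srsf6 (7.28) and Srsf9 (6.18), where pools 1 and 3 lay within 0.61 of the marrow mean. Sf3a2, Sf3b2, Prpf39, Hnrnpab, Hnrnpr, Hnrnpul1 and Hnrnpul2 differed by -0.50 to 0.07 and overlapped between the tissues.

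Some well known genes of these families had no probe set of their own symbol alone. For Hnrnpa1 (5 probe sets), Hnrnpa3 (9), Hnrnph3, Snrpf and Snrpn the probe set also carried another gene's or copy's symbol, so the sources of the signal cannot be told apart. The probe set shared by Snrpf, another Sm ring gene, and Gm13092 read 6.90, 7.37 and 9.13 in the lamina propria and 10.12, 9.98 and 9.65 in the marrow, a difference of -2.11 without overlap. The probe set of Hnrnph3 and Aff3 differed by -1.0, also without overlap. Those of Hnrnpa1 differed by -0.59 to -0.07 and those of Hnrnpa3 by -0.28 to -0.03, and all of them overlapped. The probe set of Snurf and Snrpn read 4.0, 4.22 and 3.25 against 3.51, 3.26 and 3.49, a difference of 0.40. Srsf7 was not analysed here.

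Other genes of splicing and mRNA processing, taken from 8 lists, also had mostly negative differences. Of 119 listed genes 113 were measured, and 0 passed limma in either direction, against 0% of all genes. Of the 113, 89 had a negative difference, against 32.4% of all genes, and the median was -0.38, against 0.22. Their median marrow signal was 8.01. All genes at 7 to 8 and 8 to 9 in the marrow had median differences of -0.69 and -0.97. The median of these 113 genes was -0.63 in pool 1, -0.81 in pool 2 and 0.12 in pool 3. At an unadjusted limma p under 0.05 in either direction there were 15, which is 13.3% against 13.7% of all genes, so this pooled share was near the background. By direction the separated genes were not near it. All lamina propria values lay below all marrow values in 15 of the 113, against 7.27% of all genes, and above them in 3, against 14.8%. These shares over all genes mix signal levels.

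**Figure D4:**
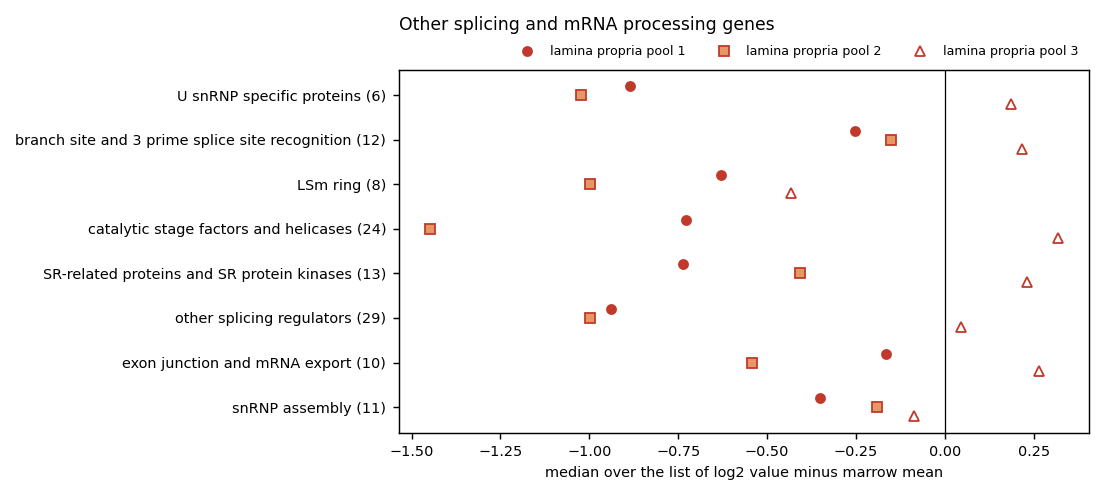
Median over each list of splicing and mRNA processing genes (number measured in brackets) of the difference of a lamina propria pool from the marrow mean, on the log2 scale. Pools 1 and 2 lie below 0 in each list, and pool 3 lies above 0 in each but the LSm ring and snRNP assembly.

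Among the partners of the snRNPs, all 6 measured Snrnp genes had negative differences, from -0.88 in Snrnp200, the helicase that unwinds U4 from U6, to -0.08 in Snrnp35. The LSm ring, which binds the end of U6, had 6 of 8 negative and a median of -0.64. Lsm5 had the lowest value, -1.88 (95% interval -3.68 to -0.07), with 4.77, 5.03 and 7.92 against 7.62, 8.09 and 7.63, and pool 3 was inside the marrow range. The LSm list was below the marrow also in pool 3, with a median of -0.43. Lsm1, a subunit of the cytoplasmic ring of mRNA decay, was its highest at 0.53.

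Of 12 genes that recognise the branch site and 3 prime splice site, 7 had negative differences. The lowest was U2af2, which binds the polypyrimidine tract, at -0.80, and the highest was Smndc1 at 0.42. Of 24 catalytic stage factors 20 were negative, from Bcas2 at -1.66 to Ppih at 0.74. Ppih, a cyclophilin of the tri-snRNP, read 10.49, 10.27 and 8.05 against 8.67, 9.16 and 8.75, so it was high in pools 1 and 2 and low in pool 3.

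Of 13 SR-related proteins and SR protein kinases 10 were negative. Srpk1, a kinase of SR proteins, had the lowest difference, -1.28 (95% interval -2.70 to 0.14), with all lamina propria values below all marrow values, and the kinase gene Clk3 the highest, 0.83. Of 29 other splicing regulators 24 were negative, with a median of -0.85. In 7 of these 29 all lamina propria values lay below all marrow values, against 7.27% of all genes. At an unadjusted limma p under 0.05 there were also 7, or 24.1% against 13.7% of all genes. Celf1 was the lowest at -2.08 (95% interval -4.07 to -0.10), without overlap, and Pcbp1 the highest at 0.45. Export and exon junction genes had 7 of 10 negative, from Thoc2, a THO complex subunit, at -2.29 without overlap to the export receptor gene Nxf1 at 0.57. Genes of snRNP assembly had 9 of 11 negative, from Clns1a at -1.15 to Coil at 0.09.

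Markers of other cell types are set beside these genes here. All 7 measured of 8 T cell markers had positive differences, 6 without overlap, with a summed level of 7.72 to 8.11 in the lamina propria and 7.40 to 7.43 in the marrow. Over all genes 67.6% were positive and 14.8% were higher without overlap. All 7 T cell markers had a marrow mean under 6, where the median difference of all genes was 0.32, and their own median was 0.48. All 8 epithelial markers were positive, 2 without overlap, at 8.90 to 9.22 against 8.46 to 8.58. Of these 8 markers 6 had a marrow mean under 6, and the median of the list was 0.40. The sums of the other lists overlapped between the tissues. The 8 macrophage and dendritic cell markers summed to 8.25 to 8.96 against 8.25 to 8.54, the 8 granulocyte markers to 7.82 to 8.43 against 8.16 to 10.06, and the 6 plasma cell markers to 8.64 to 10.20 against 9.15 to 9.59. An RMA signal has no true 0, so none of these markers can be called absent. Their part in the differences of the spliceosome and hnRNP genes was not tested.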

How the data were processed

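The submitters' processing notes name Affymetrix Expression Console 1.3.0.187 and RMA, a method that removes background, equalises array distributions and summarises probes. Its parameters were not given in the sources used here. Log2 values were taken as deposited, unfiltered and without further scaling. Of 35556 probe sets 21789 had 1 symbol, 1621 several and 12146 none in the platform table. Lamina propria and bone marrow pools (3 each) were compared with limma 3.58.1 (R 4.3.3) by two-sided lmFit and eBayes over 19938 genes, with neither trend nor block, with Benjamini-Hochberg adjustment, a threshold of 0.05 and 95% intervals. An exact test of 3 against 3 cannot go below 0.1, so none was run. P-values measure the spread between pools. The number of arrays limits the precision.

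Genes named were, per prefix group, the 3 lowest, the 2 highest and the brightest, plus a fixed set and the extremes of each pathway list; the other members were named after their values were seen. The members and lists were chosen with earlier results of these data known. Alternatives were a pool block, trend with robust variances, array weights, other thresholds, bright genes only, quantile normalization again, scaling to equal median and interquartile range, other probe set rules, leaving out each array, and lamina propria pool 3 alone. The fit was also run on simulated independent normal values, with known shifts that were equal in all lamina propria pools. No simulated pool departed from the others or had a narrower range. That run therefore cannot show how the fit behaves with pools that differ as these do. Figures used matplotlib 3.10.9.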

Additional observations from a re-analysis of the deposited data

How the results depend on the processing

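The count of members passing limma was 0 with the replicate block (pool number, smallest adjusted p 0.0739), trend, bright genes, both scalings, both probe set rules, thresholds of 0.01 and 0.1, and pool 3 alone, whose spread was assumed to be that of the marrow pools. It was 15 with array weights, 1 higher and 14 lower, against 3368 higher and 2218 lower among all 19938 genes. Lamina propria pool 3 had a weight of 0.15 there, against 0.70 to 2.80 for the other arrays. That fit is thus close to leaving pool 3 out and is not a separate result. When an array was left out the count was 0 to 20. The 20 came without lamina propria pool 3, 2 higher and 18 lower, against 4806 and 2416 of all genes. The deviations of same-numbered pools from their tissue mean correlated at 0.13, 0.05 and 0.23 over all genes. Lamina propria pools 1 and 3 correlated best with the marrow pool of their own number, and pool 2 with marrow pool 1. These values do not settle whether the numbers are pairs, and the main fit did not use them as pairs. Under the block 2 genes passed as higher and 14 as lower among all genes.

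Members wholly below the marrow numbered 5 in pool 3 alone, 8.62% against 26.7% of all genes, and 3 to 26 without an array. The 26 came without lamina propria pool 3, 44.8% against 18.7%. Those wholly above numbered 6 under interquartile scaling, 23 in pool 3 alone (39.7% against 24.8%) and 3 to 6 without an array. Without lamina propria pool 3 they were 8.62% against 51.2%. For the scaling and the other arrays left out, the share of all genes was not counted, so those counts have no background. The members' median was 0.162 under interquartile scaling and 0.155 in pool 3 alone, and -0.550 to -0.161 without an array. Of 37 named members 24 changed sign under some alternative. The 13 others (Snrpd3, Snrpd2, Snrpg, Snrpb, Sf3a3, Sf3b5, Prpf3, Prpf18, Prpf40b, Srsf5, Hnrnpll, Hnrnpa0 and Hnrnpdl) kept theirs.

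Under interquartile scaling the sign turned in Hnrnpa2b1 (0.248), Hnrnpc (0.248), Hnrnph1 (0.769), Hnrnpk (0.420), Hnrnpu (0.392), Sf3b1 (0.504) and Snrpd1 (0.464), and after quantile normalization in Snrpd1 (0.097). In pool 3 alone it turned in Hnrnpc (0.179), Hnrnph1 (0.069), Hnrnph2 (0.932), Hnrnpk (0.116), Hnrnpl (0.370), Hnrnpm (0.120), Prpf38b (0.227), Prpf4b (0.168), Prpf8 (0.338), Sf3b1 (0.552), Sf3b3 (0.820), Snrpb2 (0.662), Snrpd1 (0.101), Srsf1 (0.122), Srsf10 (0.119), Srsf12 (-0.288) and Srsf4 (0.309). With array weights it turned in Srsf2 (-0.213) and Srsf3 (-0.064), with the mean of probe sets in Srsf3 (-0.540), and with the lowest probe set in Srsf3 (-1.753) and Sf3b4 (-0.032). Without an array the range crossed 0 in Hnrnph1 (-0.161 to 0.038), Prpf19 (-0.016 to 0.347), Sf3a1 (-0.164 to 0.593), Sf3b1 (-0.529 to 0.026), Snrpd1 (-0.133 to 0.042), Srsf2 (-0.119 to 0.344) and Srsf3 (-0.103 to 0.058). Without a change of sign, the difference moved by over 1.5 times in 14 named members under interquartile scaling, among them Snrpg (1.326), Hnrnpdl (1.331), Srsf5 (1.020) and Srsf3 (0.906), and in 8 after quantile normalization. The causes were not tested.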
